A study of Mus musculus with 10 samples.

Results

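The 36 genes described here are the protein-coding integrin subunits and laminin chains of a mouse adipose tissue RNA sequencing table of 31285 genes, of which 17868 are protein-coding. They were chosen by name alone, as all Itga genes bar 1, Itgb1 to Itgb8, and the Lama, Lamb and Lamc genes. The rule uses gene names and no measured value, although it was set with earlier results of these data known. There are 18 subunits of matrix-binding integrins, 7 subunits of leukocyte integrins and 11 laminin chains. The tissue was inguinal white adipose tissue, a subcutaneous fat depot, from mice of 20 months on regular chow. The control genotype is Flox, and the other carries a disrupted growth hormone receptor gene, written Ad-GHRKO in the growth protocol and GHR Knockdown in the genotype label. Both genotypes had the same housing and age, and 5 libraries each. The sources used here give neither the Cre driver nor the sex, and do not say that each library came from a separate animal. The p-values therefore weigh a difference against the spread between these libraries, which may not be the spread between animals.

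Integrins are cell surface receptors made of 1 alpha and 1 beta subunit, and they tie the cytoskeleton to the extracellular matrix or to other cells. Laminins are trimers of an alpha, a beta and a gamma chain that form the sheet-like core of basement membranes. In adipose tissue each adipocyte is wrapped in its own basement membrane, and capillaries, nerves and mural cells have theirs. Growth hormone signals through its receptor to the transcription factor STAT5.

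Ghr, the targeted gene, had 72.9 to 130 FPKM in the Flox libraries and 13.0 to 20.1 FPKM in the Ad-GHRKO libraries, where FPKM is the number of fragments per kilobase of transcript, scaled to library depth. Its log2 change was -2.41, and the exact two-sided permutation p was 0.00794, the smallest that 5 against 5 libraries can give. Reads recovered from the FPKM values came to 14.6 to 19.2 M per library (M, mega). A list of 15 skeletal muscle genes took 6.81% of the summed FPKM in Flox 3, 10.2% in Flox 5 and 18.2% in Ad-GHRKO 1, and at most 0.252% in the other 7 libraries. These 3 libraries are called muscle-rich below, and values without them are given beside the results they move. Adipocyte markers were abundant in every library: the summed FPKM of 7 of them was 6474 to 10363 in Flox and 3206 to 8871 in Ad-GHRKO, with the lowest value in Ad-GHRKO 1. The basement membrane and adhesion markers set for these genes, Lama4 and Itgb1, were present in every library, at 11.1 FPKM or more and 64.2 FPKM or more.

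Lama5, Itga5 and Itgb1 are the members on which the comparison turns, so the 250 bases upstream of their annotated starts are shown from the RefSeq promoter table of GRCm38.p6, which holds 22 of the 36 members. The windows are chr2:180225860-180226109 on the minus strand for Lama5, chr15:103366792-103367041 on the minus strand for Itga5 and chr8:128685404-128685653 on the plus strand for Itgb1. Each is written 5′ to 3′ along its gene, and capitals mark the GC box (GGGCGG, or CCGCCC on the other strand) and, in Itgb1, a TEAD site (GGAATG).
Lama5: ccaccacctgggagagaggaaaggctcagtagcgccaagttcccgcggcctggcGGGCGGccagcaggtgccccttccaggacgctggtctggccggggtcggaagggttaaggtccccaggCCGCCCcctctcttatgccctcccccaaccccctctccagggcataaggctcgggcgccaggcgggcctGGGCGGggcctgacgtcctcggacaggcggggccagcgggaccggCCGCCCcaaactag
Itga5: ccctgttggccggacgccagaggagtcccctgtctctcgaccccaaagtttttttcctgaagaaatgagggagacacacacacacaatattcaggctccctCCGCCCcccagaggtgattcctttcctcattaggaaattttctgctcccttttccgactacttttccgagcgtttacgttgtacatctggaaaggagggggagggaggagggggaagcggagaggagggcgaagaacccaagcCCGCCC
Itgb1: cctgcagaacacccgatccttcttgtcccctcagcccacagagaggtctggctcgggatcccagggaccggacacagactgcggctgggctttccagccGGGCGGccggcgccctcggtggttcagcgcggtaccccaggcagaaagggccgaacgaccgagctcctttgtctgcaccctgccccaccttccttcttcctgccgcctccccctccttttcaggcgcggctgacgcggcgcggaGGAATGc
GC content was 72.4%, 55.6% and 68% in turn, against a mean of 53.2% over all 32851 windows of that length in the table. Lama5 had 4 GC boxes, Itga5 had 2 and Itgb1 had 1, and 32.7% of all windows hold at least 1. The TEAD letters are in 12.6% of all windows. Searched on both strands, the letters of a STAT5 site (TTCNNNGAA, in 7.02% of all windows), an AP-1 site (TGANTCA, 6.75%) and a CArG box (1.47%) were in none of the 3 windows. Over the 22 members with a window, 8 had a GC box, 3 the TEAD letters, 2 the STAT5 letters, 2 a CArG box and 0 the AP-1 letters. A match of letters is a description of the window only.

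The depot's integrin and laminin transcripts were led by a small set of genes. By mean over all libraries, 10 of the 36 members reached 10 FPKM and 10 lay under 1 FPKM. The highest were Itgb1, Lamb2, Lamc1 and Itgb5, followed by Itga7, Lamb1, Itgb2 and Lama4. Lama4 led the alpha chains, Lamb2 the beta chains and Lamc1 the gamma chains. Lama5 and Lama2 came next among the alpha chains, at 5.96 and 5.43 FPKM in Flox, and Lamb1 next among the beta chains. The epithelial laminin chains Lama3 and Lamb3 were near 1 FPKM.

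**Figure D1:**
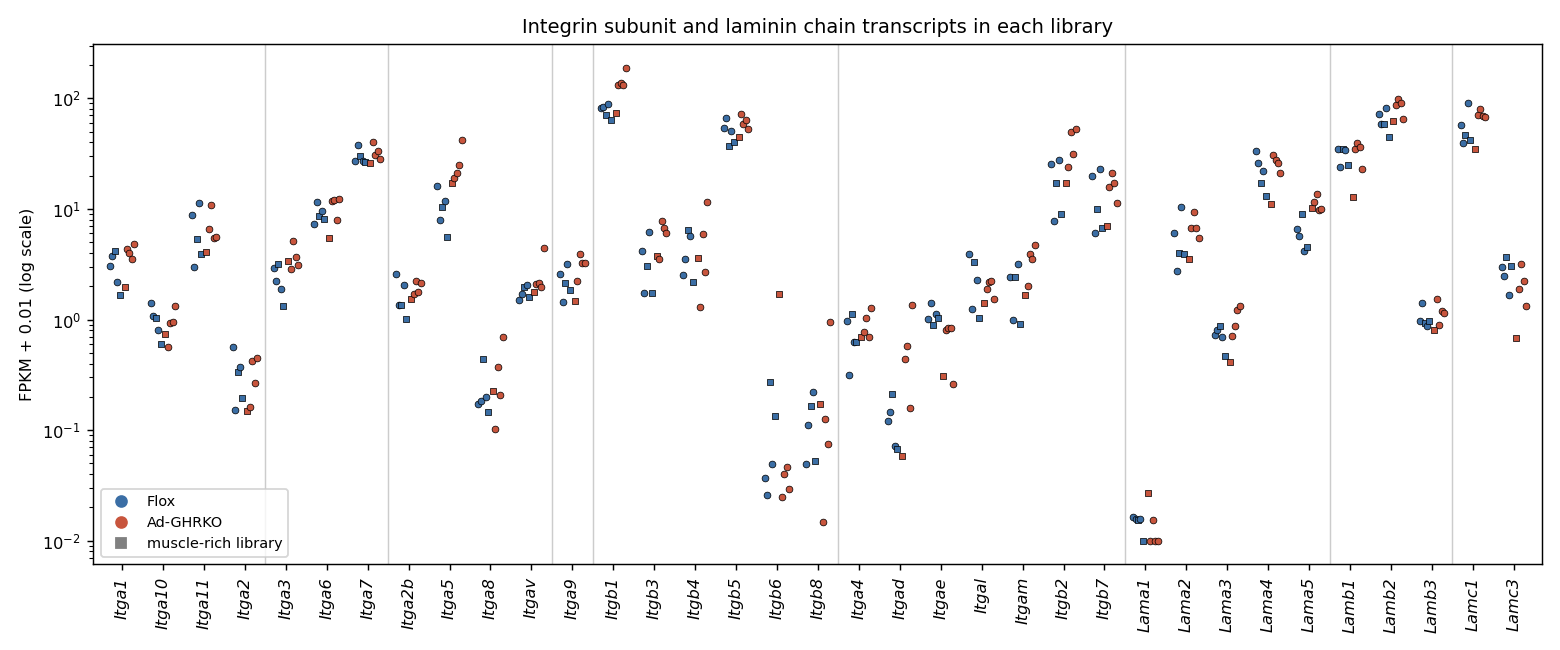
FPKM of the members reported here in each library on a log axis, with 0.01 added so that zeros can be drawn. Blue points are Flox, red points Ad-GHRKO, squares the 3 muscle-rich libraries, and grey lines part the gene classes. Itgb1 is highest in both genotypes, Lama1 sits at the floor, and the levels of most members overlap between genotypes.

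A gene entered the test if 5 or more libraries had 1 FPKM or more, on log2(FPKM + 1) with limma and Benjamini-Hochberg adjustment over all 12785 such genes. This kept 25 of the 36 members. Lama5 passed 0.05 and was higher in Ad-GHRKO, no member passed in the lower direction, and 24 tested members did not pass. Over all tested genes 280 passed, or 2.19%, of which 35.4% were higher (60.3% after TPM rescaling, which gives every library the same sum). At an unadjusted p under 0.05 there were 6 members, Lama5, Itga5, Itgb1, Itga3, Itgb2 and Itgb3, all higher in Ad-GHRKO, against 16.4% of all genes. The sign of the change was positive for 22 of 25 members (88%) and for 55.7% of all genes. The median log2 change was 0.24 over the tested members and 0.04 over all genes. By class, 13 of 13 tested matrix-binding integrins, 3 of 4 leukocyte integrins and 6 of 8 laminin chains had a positive sign, with medians of 0.24, 0.36 and 0.22. The unadjusted p was under 0.05 for 4, 1 and 1 of them in turn. Leaving out the 3 muscle-rich libraries moved the log2 change by over 1.5 times for several members that did not pass: from 0.24 to 0.13 for Itgb5, from 0.13 to 0.0016 for Itga2b, from 0.07 to 0.00071 for Itga11, from 0.08 to 0.20 for Itga6, from 0.08 to 0.13 for Itgb4, and from 0.04 to -0.04 for Lama4. Lamb1 and Lamc3 moved too, as given with their values.

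**Figure D2:**
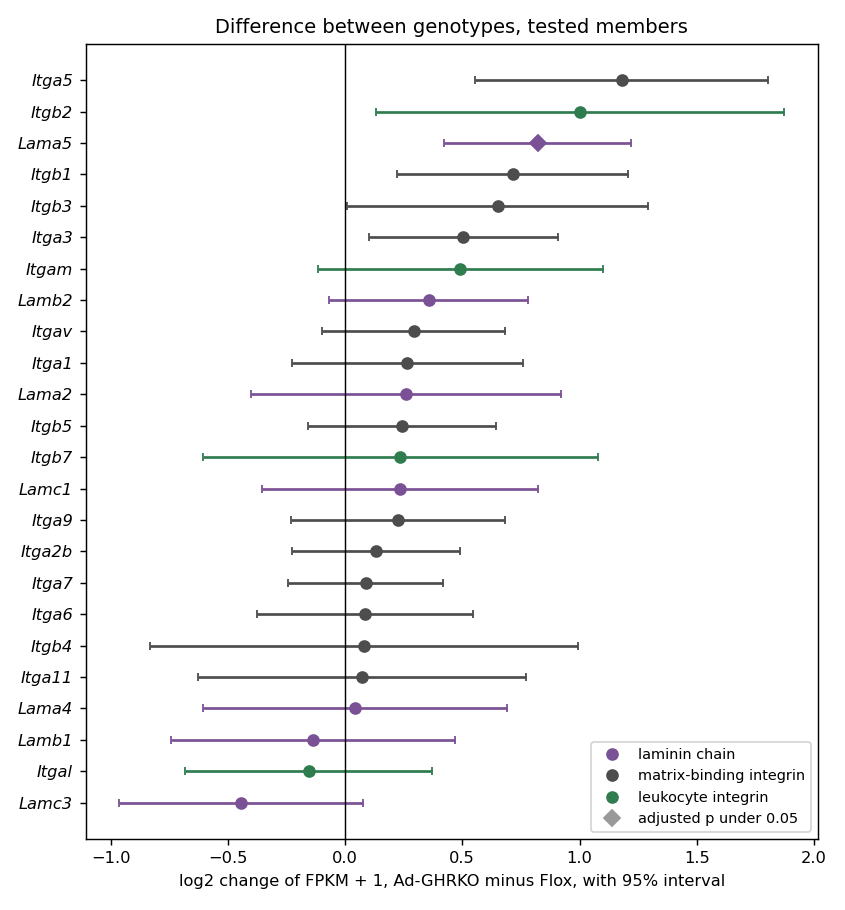
Log2 change of FPKM + 1, Ad-GHRKO minus Flox, for the tested members reported here, with the 95% interval of the limma fit as bars. Lama5 (diamond) is the member with an adjusted p under 0.05; Itga5 has a larger change of 1.18 with a wider interval, and Lamc3 has the most negative one, -0.44.

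Among the laminin alpha chains, which carry the receptor-binding domain and give each laminin its name, Lama5 was higher in Ad-GHRKO. Lama5 (ENSMUSG00000015647) lies on chromosome 2 at 180176373 to 180225859 on the minus strand (GRCm38) and encodes the alpha chain of laminins of mature vessels and epithelia. In Flox 1 to 5 it had 6.505, 5.64, 8.97, 4.15 and 4.53 FPKM, and in Ad-GHRKO 1 to 5 it had 10.3, 11.6, 13.6, 9.81 and 9.92 FPKM. All 5 Ad-GHRKO libraries were above all 5 Flox libraries, the highest Flox value being that of the muscle-rich Flox 3. No overlap in either direction was found for 4.97% of all tested genes, and for 1.62% with Ad-GHRKO higher. The means were 5.96 ± 1.92 and 11.03 ± 1.59 FPKM (SD, n = 5 each), a ratio of 1.85. The log2 change was 0.82 with a standard error of 0.18, a 95% interval of 0.42 to 1.22 and a limma adjusted p of 0.0436. Without the 3 muscle-rich libraries, which leaves 3 Flox and 4 Ad-GHRKO, the means were 5.43 ± 1.19 and 11.2 ± 1.77 FPKM (SD) and the adjusted p was 0.0264, where 6.08% of all genes passed. The call ended when any of 8 of the 10 libraries was left out (all but Flox 3 and Ad-GHRKO 1), with adjusted p up to 0.120 from limma, and without a filter on low genes, at 0.102.

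Lama4, the alpha chain of endothelial, mural and adipocyte basement membranes, was the most abundant alpha chain in both genotypes. It had 33.7, 26.1, 17.2, 22.1 and 13.1 FPKM in Flox 1 to 5, and 11.1, 30.5, 27.95, 25.8 and 21.03 FPKM in Ad-GHRKO 1 to 5. The groups overlapped over most of their range. The log2 change was 0.04, with a 95% interval of -0.61 to 0.69 and a limma adjusted p of 0.962. Its 3 lowest values were those of the muscle-rich libraries, at 11.1 to 17.2 FPKM against 21.03 to 33.7 FPKM in the other 7, and the part of muscle reads in this was not tested. Lama2, the alpha chain of muscle and nerve basement membranes, had 5.43 ± 3.08 FPKM in Flox against 6.36 ± 2.16 FPKM in Ad-GHRKO (SD, n = 5 each; adjusted p = 0.734, limma). The muscle-rich libraries, at 3.51 to 4.004 FPKM, lay within the span of the others, at 2.72 to 10.5 FPKM.

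The remaining alpha chains missed the filter on low values and were not tested. Lama3, the alpha chain of epithelial anchoring laminin, averaged 0.706 FPKM in Flox against 0.895 FPKM in Ad-GHRKO, on 79 to 250 reads per library. In the fit without a filter its log2 change was 0.13 and its adjusted p 0.783 (limma). Lama1, the chain of embryonic basement membranes, was represented by 0 to 3 reads per library and was not detectable above counting error at this depth.

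As a share of the summed FPKM of the 5 alpha chains, Lama5 took 13.8%, 16.0%, 28.9%, 11.1% and 20.6% in Flox 1 to 5. In Ad-GHRKO 1 to 5 it took 40.7%, 23.4%, 26.2%, 22.5% and 26.3%. The Flox 3 share lay inside the Ad-GHRKO span, and the highest share was that of Ad-GHRKO 1. Lama4 took 63.98% ± 8.33 in Flox and 54.9% ± 6.88 in Ad-GHRKO (SD, n = 5 each). In the 7 libraries that were not muscle-rich the Lama5 share averaged 13.6% in Flox and 24.6% in Ad-GHRKO. These shares rest on the Lama5 values already given and carry no test of their own.

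**Figure D3:**
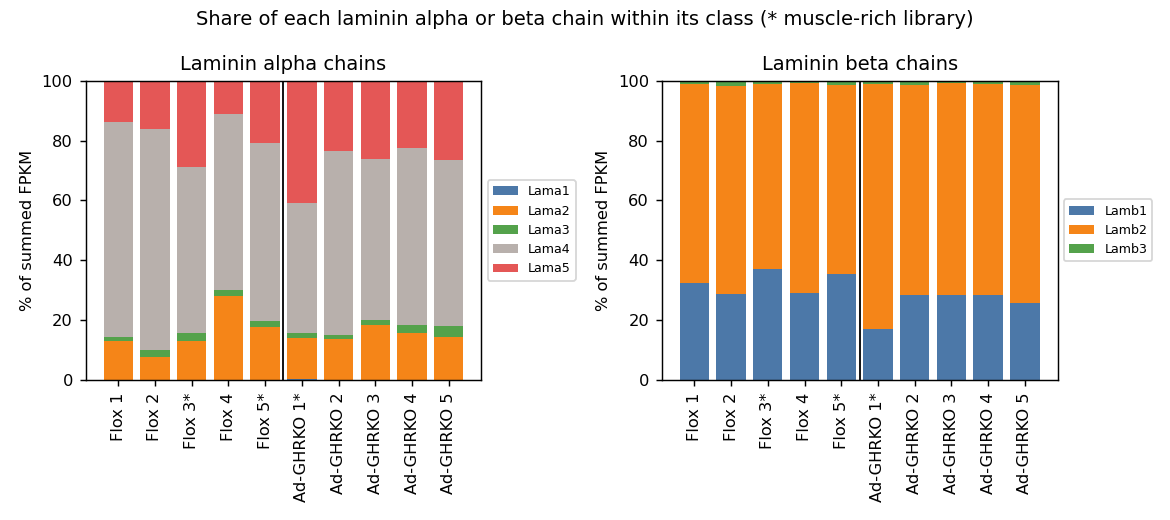
Share of each chain in the summed FPKM of its class, in percent, for the alpha and beta chains, 1 bar per library, with Flox left and Ad-GHRKO right of the black line and an asterisk at muscle-rich libraries. Lama4 and Lamb2 hold the largest share of their class in all 10 libraries, and the Lama5 share is between 11.1% and 28.9% in Flox and between 22.5% and 40.7% in Ad-GHRKO.

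Of the beta chains, Lamb2 was the most abundant in every library. Lamb2, typical of vascular and neuromuscular basement membranes, had 63.04 ± 14.5 FPKM in Flox against 80.5 ± 15.8 FPKM in Ad-GHRKO (SD, n = 5 each). Its log2 change of 0.36 did not pass (adjusted p = 0.407, limma). Lamb1, the beta chain of early and widely spread laminins, had 30.4 ± 5.49 and 29.2 ± 11.035 FPKM (log2 change -0.14, adjusted p = 0.857). The low end of Lamb1 in Ad-GHRKO was the muscle-rich Ad-GHRKO 1 at 12.9 FPKM, and without the muscle-rich libraries the change took the other sign, at 0.10. Lamb3, the beta chain of epithelial laminin, averaged 1.02 and 1.11 FPKM and was not tested. Its gene overlaps G0s2 and Hsd11b1, and whether counting used strand is not given in the sources used here, so its reads may be shared with them. Reads may likewise be shared in all 17 members that overlap another gene of the table, among them Itga9 with Gm10157 (mean 9.23 FPKM) and Gm2415 (4.33 FPKM), and Itgad with Cox6a2 (79.6 FPKM). Where the other gene lies on the same strand, as for Itga6 and Gm13663, use of strand would not part them. Overlap here is of whole gene spans, introns included, and whether exons overlap or reads were in fact shared was not tested.

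Lamc1, the gamma chain of nearly all laminins, held 92.98% of the gamma chain FPKM in Flox and 95.3% in Ad-GHRKO. It stood at 55.2 ± 20.5 FPKM in Flox against 64.5 ± 17.3 FPKM in Ad-GHRKO (SD, n = 5 each; log2 change 0.23, adjusted p = 0.727, limma). Within Ad-GHRKO the muscle-rich library 1 stood apart at 34.6 FPKM, with 67.9 to 79.5 FPKM in the other 4. Lamc3, a rarer gamma chain, had the largest negative change among tested members, from 2.76 ± 0.762 to 1.84 ± 0.937 FPKM (log2 change -0.44), and it did not pass (adjusted p = 0.399). Without the muscle-rich libraries it had 2.36 ± 0.667 FPKM in 3 Flox libraries and 2.14 ± 0.774 FPKM in 4 of Ad-GHRKO (SD), with a log2 change of -0.11. The lowest value of all was that of the muscle-rich Ad-GHRKO 1, at 0.673 FPKM.

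The integrin beta subunits were led by Itgb1, the common partner of the collagen, laminin and fibronectin receptors. Itgb1 (ENSMUSG00000025809) lies on chromosome 8 at 128685654 to 128733200 on the plus strand (GRCm38). In Flox 1 to 5 it had 81.8, 83.7, 70.1, 88.5 and 64.2 FPKM, and in Ad-GHRKO 1 to 5 it had 73.1, 131, 138, 132 and 189 FPKM. Of the Ad-GHRKO libraries 4 were above every Flox library, and the muscle-rich Ad-GHRKO 1 lay inside the Flox span. The 3 muscle-rich libraries had the lowest values, 64.2 to 73.1 FPKM, against 81.8 to 189 FPKM in the other 7. The part of muscle reads in this was not tested. The means were 77.6 ± 10.1 and 133 ± 41.2 FPKM (SD, n = 5 each). The log2 change was 0.72 with a standard error of 0.22 and a 95% interval of 0.22 to 1.21, and it did not pass (adjusted p = 0.136, limma). Without the 3 muscle-rich libraries the means were 84.7 ± 3.42 and 148 ± 27.8 FPKM (SD), and the adjusted p of 0.0331 passed. It passed as well with Ad-GHRKO 1 alone left out, at an adjusted p of 0.00884, where 9.27% of all genes passed, and in all in 5 of 23 alternative fits.

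**Figure D4:**
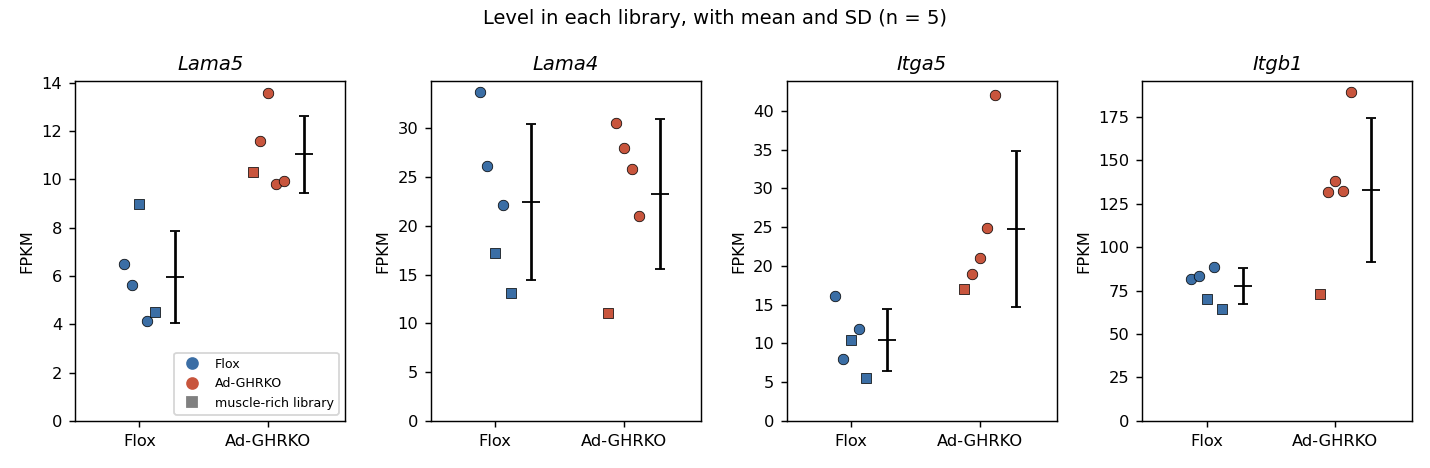
FPKM in each library for Lama5, Lama4, Itga5 and Itgb1, with the mean and SD of each group (n = 5) as bars and muscle-rich libraries as squares. The groups do not overlap for Lama5 and Itga5, 1 Ad-GHRKO library lies among the Flox libraries for Itgb1, and the groups overlap for Lama4.

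Itgb5, which pairs with Itgav to bind vitronectin, was the next beta subunit, at 49.5 ± 11.3 FPKM in Flox against 58.4 ± 10.5 FPKM in Ad-GHRKO (SD, n = 5 each; adjusted p = 0.563, limma). Itgb5 had 37.4 to 44.9 FPKM in the 3 muscle-rich libraries and 50.3 to 72.3 FPKM in the other 7. Itgb3, the beta subunit of the platelet fibrinogen receptor and of an Itgav receptor, had 3.34 ± 1.85 and 5.57 ± 1.89 FPKM (log2 change 0.65, adjusted p = 0.298). Itgb4, the laminin receptor subunit of hemidesmosomes and Schwann cells, had 4.08 ± 1.92 and 5.01 ± 4.04 FPKM (adjusted p = 0.949). Its highest value, 11.6 FPKM in Ad-GHRKO 5, came with the highest sum of 6 Schwann cell genes, 413 FPKM there against 9.93 to 94.7 FPKM in the other 9 libraries. Ad-GHRKO 5 also had the highest sums of the macrophage (2322 against at most 1773 FPKM) and pericyte and smooth muscle genes (379 against at most 269 FPKM). The same held for the lymphatic endothelial and platelet genes. A link of Itgb4 to any of these cell types was not tested. Of the epithelial genes, Krt5 and Krt14 had at most 0.301 FPKM in any library, while Krt8 reached 2.15 FPKM, Krt18 1.90 FPKM and Cldn3 3.20 FPKM. Itgb6 and Itgb8, partners of Itgav that activate TGF-beta, averaged 0.0943 and 0.110 FPKM in Flox and 0.358 and 0.258 FPKM in Ad-GHRKO, and were not tested. Within the 8 beta subunits Itgb1 took 47.5% ± 3.52 of the summed FPKM in Flox and 52.2% ± 3.96 in Ad-GHRKO (SD, n = 5 each), as a description.

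Among the alpha subunits that bind the RGD motif of fibronectin and vitronectin, Itga5 had the largest change of any tested member. Itga5 (ENSMUSG00000000555) forms the main fibronectin receptor with Itgb1, and lies on chromosome 15 at 103344286 to 103366763 on the minus strand (GRCm38). In Flox 1 to 5 it had 16.2, 8.01, 10.4, 11.9 and 5.56 FPKM. In Ad-GHRKO 1 to 5 it had 17.05, 19.02, 21.02, 24.9 and 42.04 FPKM. All 5 Ad-GHRKO libraries were above all 5 Flox libraries, by a narrow margin between Flox 1 and Ad-GHRKO 1. The means were 10.4 ± 4.02 and 24.8 ± 10.1 FPKM (SD, n = 5 each), a ratio of 2.39. The log2 change was 1.18 with a standard error of 0.29 and a 95% interval of 0.56 to 1.81, and the adjusted p of 0.0584 from limma missed the threshold. It passed without Ad-GHRKO 1, at 0.0271, and missed it at 0.0788 without all 3 muscle-rich libraries; it passed in 9 of 23 alternative fits. With Lama5, Itga5 makes 2 of 25 tested members without overlap between groups (8%), both higher in Ad-GHRKO, against 4.97% of all tested genes.

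Itgav, the alpha subunit of the vitronectin receptors, had 1.75 ± 0.245 FPKM in Flox against 2.47 ± 1.10 FPKM in Ad-GHRKO (SD, n = 5 each; adjusted p = 0.466, limma). Itga2b, the platelet fibrinogen receptor subunit, had 1.66 ± 0.631 and 1.86 ± 0.302 FPKM (adjusted p = 0.749). Itga8, which binds nephronectin, averaged 0.219 and 0.308 FPKM and was not tested. In this class the level of Itga5 was therefore the highest in each genotype. As a share of all 17 alpha subunits counted here, Itga5 took between 9.96% and 19.55% in Flox and between 19.48% and 35.8% in Ad-GHRKO, ranges that just overlapped.

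The laminin-binding alpha subunits did not pass in either direction. Itga7, the laminin receptor subunit best known from muscle, was the most abundant alpha subunit by mean, at 29.7 ± 4.71 FPKM in Flox against 31.7 ± 5.57 FPKM in Ad-GHRKO (SD, n = 5 each; adjusted p = 0.825, limma). Its level in the 3 muscle-rich libraries, 25.98 to 29.8 FPKM, was not above that of the other 7, 27.2 to 40.4 FPKM. Itga6, found on endothelial and epithelial cells, had 9.01 ± 1.63 and 9.89 ± 3.02 FPKM (adjusted p = 0.889). Itga3, a receptor subunit for laminins that contain Lama5, had 2.29 ± 0.748 and 3.64 ± 0.899 FPKM (log2 change 0.50, adjusted p = 0.197). Of these 3 genes, Itga3 alone had an unadjusted p under 0.05.

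The collagen-binding alpha subunits did not pass either. Itga1 had 2.94 ± 1.04 FPKM in Flox against 3.71 ± 1.08 FPKM in Ad-GHRKO (SD, n = 5 each; adjusted p = 0.619, limma). Itga11, a fibroblast receptor for fibrillar collagen, had 6.48 ± 3.50 and 6.51 ± 2.60 FPKM (adjusted p = 0.944). Itga2 averaged 0.313 and 0.281 FPKM and Itga10, known from cartilage, 0.969 and 0.889 FPKM, and neither was tested. Itga1 and Itga2 lie 20.996 kb apart on chromosome 13 and their means differed 11.2-fold. Itga9, which binds tenascin and is known from lymphatic vessels, had 2.22 ± 0.678 and 2.81 ± 0.966 FPKM (adjusted p = 0.653).

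Leukocyte integrins are carried by immune cells, and in bulk tissue fewer cells of a type and less RNA per cell cannot be told apart. Itgb2, the beta subunit shared by the leukocyte integrins of myeloid and lymphoid cells, lies on chromosome 10 at 77530252 to 77565708 on the plus strand (GRCm38). It had 25.4, 7.78, 17.2, 27.7 and 8.998 FPKM in Flox 1 to 5 and 17.2, 23.96, 49.1, 31.2 and 52.8 FPKM in Ad-GHRKO 1 to 5. The groups overlapped, and 3 Ad-GHRKO libraries were above all Flox libraries. The log2 change was 1.004 with a 95% interval of 0.13 to 1.87, and it did not pass (adjusted p = 0.235, limma). The sum of 8 macrophage genes ran from 576 to 1773 FPKM in Flox and from 848 to 2322 FPKM in Ad-GHRKO, 0 of the 8 were called by limma or voom (1 at an unadjusted p under 0.05), and their median log2 change was 0.42. Divided by that sum, Itgb2 was 1.35% to 1.58% in Flox and 1.93% to 2.82% in Ad-GHRKO, which did not overlap. The ratio was chosen after the values were seen and is given with no test. All 8 macrophage genes had a positive sign, with log2 changes from 0.11 for C1qa to 0.92 for Adgre1 and 1.08 for Cd68. By Flox mean the sum is led by Lyz2 (525 FPKM), C1qa and C1qb (227 FPKM each), whose log2 changes were 0.63, 0.11 and 0.38. Whether Itgb2 changed apart from macrophage content was not tested.

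**Figure D5:**
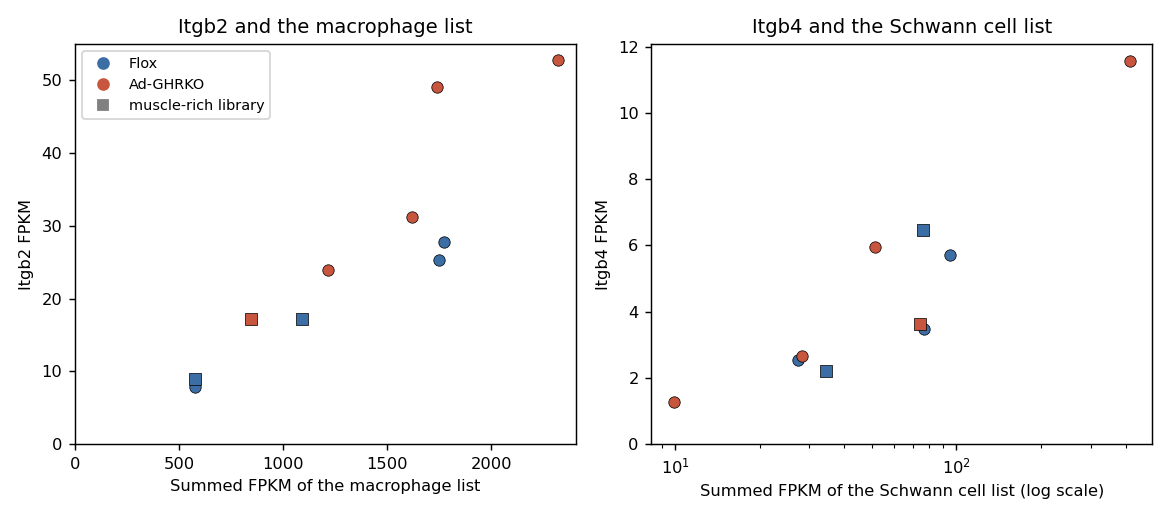
FPKM of Itgb2 against the summed FPKM of 8 macrophage genes (left) and of Itgb4 against the summed FPKM of 6 Schwann cell genes (right, log axis), 1 point per library, squares for muscle-rich libraries. Itgb2 is higher in libraries with a higher macrophage sum, with Ad-GHRKO points above Flox points of like sum. Ad-GHRKO 5 stands apart at 413 FPKM of Schwann cell genes and 11.6 FPKM of Itgb4, and also has the highest macrophage sum.

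The alpha partners of Itgb2 among the members were at 5 FPKM or less in every library. Itgam, the partner on macrophages and neutrophils, had 1.97 ± 0.987 FPKM in Flox against 3.15 ± 1.29 FPKM in Ad-GHRKO (SD, n = 5 each; log2 change 0.49, adjusted p = 0.424, limma). Itgal, the partner on lymphocytes, had 2.35 ± 1.26 and 1.85 ± 0.369 FPKM (log2 change -0.16, adjusted p = 0.804). The sum of 9 T and NK cell genes ran from 5.85 to 34.5 FPKM in Flox and from 8.25 to 15.3 FPKM in Ad-GHRKO. Of these, 4 were tested and 0 called, all 4 had a negative sign, and their median log2 change was -0.52. Itgad, a further myeloid partner, had 0.0582 to 0.202 FPKM in Flox, 1.34 FPKM in Ad-GHRKO 5 and 0.0485 to 0.564 FPKM in the other 4 Ad-GHRKO libraries, and was not tested. Itgb7, the partner of the gut-homing and intraepithelial lymphocyte integrins, had 13.1 ± 7.81 and 14.5 ± 5.51 FPKM (adjusted p = 0.816). Itga4, which pairs with Itgb1 or Itgb7 on lymphocytes, averaged 0.722 and 0.885 FPKM. Itgae, the subunit of intraepithelial and dendritic cells that pairs with Itgb7, was not tested, with 0.878 to 1.39 FPKM in Flox and 0.254 to 0.833 FPKM in Ad-GHRKO. All 5 Ad-GHRKO values of Itgae were below all Flox values, on 17 to 114 reads per library. Of all tested genes 4.97% had no overlap in either direction. In the fit without a filter its log2 change was -0.39 and its adjusted p 0.386 (limma).

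Inside the cell, integrins act through talins, kindlins, vinculin, focal adhesion kinase and their partners. Of 35 genes of this adhesion complex 33 were tested with limma, 0 passed (0 with voom; 12 at an unadjusted p under 0.05, all higher), 29 had a positive sign, and the median log2 change was 0.39. Over all genes 16.4% had an unadjusted p under 0.05, 55.7% had a positive sign, and the median was 0.04. The smallest p belonged to Actn1, an actin crosslinker, with 6.92 ± 1.20 FPKM in Flox against 15.2 ± 5.41 FPKM in Ad-GHRKO (SD, n = 5 each; adjusted p = 0.067, limma). Tln2, a talin, had 12.1 ± 2.87 and 22.3 ± 5.98 FPKM (adjusted p = 0.0678). Without the muscle-rich libraries 9 of the 33 passed, all higher: Flna, Vcl, Tln1, Actn4, Parva, Actn1, Ptk2b, Nedd9 and Tns3, where 6.08% of all genes passed.

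Laminin networks are joined in the basement membrane by nidogens, collagen IV and perlecan. Of 18 genes of this list 14 were tested with limma, 0 passed (0 with voom; 4 at an unadjusted p under 0.05, all higher), 10 had a positive sign, and the median was 0.18. Among all tested genes 2.19% passed, 16.4% had an unadjusted p under 0.05 in either direction, and 55.7% had a positive sign. Hspg2, which encodes perlecan, had 51.2, 51.7, 54.4, 43.5 and 44.0 FPKM in Flox 1 to 5 and 56.8, 118, 109, 103 and 65.8 FPKM in Ad-GHRKO 1 to 5. Its groups did not overlap, and its log2 change of 0.82 missed the threshold (adjusted p = 0.0708, limma). Col18a1, a basement membrane collagen, had 27.1 ± 7.04 and 49.1 ± 15.3 FPKM (SD, n = 5 each; adjusted p = 0.135). These 2 genes passed without the muscle-rich libraries, both higher, where 6.08% of all genes passed.

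Cells also hold laminin through dystroglycan, syndecans and other receptors. Of 17 such genes 16 were tested with limma and 1 passed (2 with voom), against 2.19% of all genes. It was Sdc4, a syndecan that acts with Itga5 and Itgb1 at focal adhesions, and it rose. An unadjusted p under 0.05 was found for 3 higher and 2 lower genes, against 16.4% of all genes in either direction. Sdc4 had 15.8 to 28.6 FPKM in Flox and 45.0 to 136 FPKM in Ad-GHRKO, without overlap (log2 change 1.58, adjusted p = 0.0285, limma), and missed the threshold at 0.0554 without the muscle-rich libraries. The median log2 change of the list was 0.05, with 10 positive and 6 negative signs, against 55.7% positive over all genes. Without the muscle-rich libraries 1 gene passed as higher and 1, Rpsa, the ribosomal laminin receptor, as lower, where 6.08% of all genes passed. In all libraries Rpsa had 241 to 355 FPKM in Flox and 204 to 226 FPKM in Ad-GHRKO, without overlap (adjusted p = 0.131, limma).

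Integrins also bind ligands other than laminin, among them thrombospondin, fibronectin and the CCN proteins. Of 28 such genes 23 were tested, 4 rose, 0 fell, 21 had a positive sign, and the median log2 change was 0.52. Over all genes 2.19% passed and 55.7% had a positive sign. Thbs1, thrombospondin 1, averaged 9.56 ± 10.6 FPKM in Flox against 145 ± 103 FPKM in Ad-GHRKO (SD, n = 5 each; log2 change 3.99, adjusted p = 0.0142, limma). Ccn1, a matricellular ligand of Itgav and Itga6 integrins, had 14.6 to 28.001 FPKM in Flox and 70.3 to 383 FPKM in Ad-GHRKO (log2 change 2.82, adjusted p = 0.00964). Ccn2, its relative, had 1.99 ± 0.42 and 9.48 ± 3.65 FPKM (adjusted p = 0.00252). Mfge8, which bridges Itgav integrins to dying cells, had 72.8 to 181 FPKM in Flox and 162 to 475 FPKM in Ad-GHRKO (log2 change 1.62, adjusted p = 0.0285). Without the muscle-rich libraries 7 of the 23 passed, all higher, against 6.08% of all genes in either direction. The difference between this list and the laminins was not tested.

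Markers of the cell types that carry these receptors were measured beside them. The sum of 8 endothelial genes, for the vessels around which Lama4 and Lama5 are laid down, was 118 to 239 FPKM in Flox and 128 to 284 FPKM in Ad-GHRKO, with 0 of 8 called by limma or voom (0 at an unadjusted p under 0.05) and a median log2 change of -0.01. The sum of 8 pericyte and smooth muscle genes was 107 to 174 FPKM in Flox and 138 to 379 FPKM in Ad-GHRKO, with 6 of 7 tested genes positive and a median log2 change of 0.29. Of these 7, Cspg4 fell, from 6.87 ± 1.30 FPKM in Flox to 3.09 ± 0.452 FPKM in Ad-GHRKO (SD), without overlap (adjusted p = 0.00811, limma). Among all tested genes 2.19% passed and 55.7% had a positive sign. Acta2, a smooth muscle actin named after its values were seen, had 56.4 ± 17.2 FPKM in Flox against 154 ± 80.5 FPKM in Ad-GHRKO (SD, n = 5 each), without overlap (adjusted p = 0.0629, limma). The sum of 8 fibroblast genes was 233 to 677 FPKM and 242 to 460 FPKM. The 8 epithelial genes, another source of Lama5, summed to 1.61 to 6.501 FPKM in Flox and 2.04 to 6.77 FPKM in Ad-GHRKO, and 1 passed the filter on low values. The 4 mesothelial genes summed to at most 1.36 FPKM in any library. The part of any cell type in the differences of Lama5, Itga5 and Itgb1 was not tested.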

How the data were processed

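RNA sequencing libraries were made from polyadenylated RNA with random priming and second strand marking, per the labels' protocols. The authors deposited 1 table of FPKM values per gene and library, per the file headers; the sources used here name no aligner or counter and do not say whether strand was used. The submitters' processing notes name GRCm39, but 31124 of 31253 gene identifiers (99.59%) had their GRCm38 coordinates of GENCODE M21, so positions are given as GRCm38. FPKM times exon length and a constant per library gave whole reads, within 0.01, for 99.43% to 99.49% of values. At the mean depth of 17.9 M reads, 1 FPKM on 1 kb is about 17.9 reads, which limits low members; counting error is only part of the spread between libraries.

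Groups follow the genotype labels. A gene needed 1 FPKM or more in 5 or more libraries, and testing was with limma 3.58.1 (R 4.3.3; mean-variance trend, two-sided) on log2(FPKM + 1), which understates changes of low genes, with Benjamini-Hochberg adjustment at 0.05 over all tested genes. Ghr was compared by an exact permutation test. Members are named, but 1 of them and 1 gene of a pathway list are not reported here, though counts include them (the counts of outlying libraries do not); of each pathway list, up to 4 called genes, or with none the 2 with the smallest p, and genes that passed only without the muscle-rich libraries were named after their values were seen. Shares are parts of summed FPKM. Muscle-rich libraries have over 1% of summed FPKM in the muscle list. The members and lists were chosen with earlier results of these data known. Alternatives were other pseudocounts (0.1, 0.5), filters, scalings, a replicate block, array weights, voom on recovered reads, muscle and B cell covariates, and leaving out libraries. Same-numbered libraries deviated together with correlations from -0.489 to 0.394, so the numbers were not taken as pairs. Python 3.11.15, pandas 2.3.3 and matplotlib 3.10.9 read and drew the values. No libraries held identical values, and the script was tested on simulated data.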

Additional observations from a re-analysis of the deposited data

Results flagged for a closer look

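In 7 of 70 groups of 5 libraries (the members reported here in 2 genotypes), 1 library lay far from the other 4, by Dixon's criterion with a critical value of 0.71; chance flags about 1 in 20 such groups. Lamc1 in Ad-GHRKO 1, a muscle-rich library, had 34.6 FPKM, and the other Ad-GHRKO libraries 67.9 to 79.5 FPKM. Itgav in Ad-GHRKO 5 had 4.42 FPKM, the others 1.77 to 2.12 FPKM. In the same library Itgb8 had 0.940 FPKM, the others at most 0.163 FPKM. Itgb6 in Ad-GHRKO 1, the same muscle-rich library, had 1.69 FPKM, the others at most 0.0365 FPKM. Itga8 in Flox 3, also muscle-rich, had 0.430 FPKM, the others 0.135 to 0.190 FPKM. Lamb3 in Flox 2 had 1.42 FPKM, the others 0.856 to 0.969 FPKM. Lama1 in Flox 5, also muscle-rich, was listed at 0 FPKM, the others at 0.00554 to 0.00651 FPKM, which is a difference of single reads. Of these, Lamc1 and Itgav were tested between genotypes, and neither was called.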

How the results depend on the processing

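Over 564 alternative values of the 25 tested members, 518 kept sign and side of the threshold, 10 lost the call (all Lama5), 14 gained one (Itga5, Itgb1) and 22 turned sign, in 7 members. The count of called members was 1 as reported, 0 with no filter and with the replicate block, 2 with the 5 FPKM filter, TPM rescaling, either covariate and without the muscle-rich libraries, 3 with median ratio scaling, quantile normalization and array weights, and 0 to 3 with 1 library left out. The count of all called genes was 280, then 117 with no filter, 551 with median ratio scaling, 565 with quantile normalization, 85 with the replicate block, 1695 with array weights, 801 with the muscle covariate, 777 without the muscle-rich libraries, and 116 to 1185 with 1 library left out, the highest without Ad-GHRKO 1. With the replicate block, Lama5 had an adjusted p of 0.0638 (limma). After TPM rescaling the all-gene median was 0.15 (log2) instead of 0.04, and the member median 0.38 instead of 0.24. Signs turned for Itga11 (-0.0012) and Itgb4 (-0.36) with array weights, for Lamb1 with array weights (0.17) and without the muscle-rich libraries (0.10), and for Lama4 with the muscle covariate (-0.028) and without the muscle-rich libraries (-0.043). With 1 library left out the log2 change ran from -0.12 to 0.28 for Itga11, -0.0019 to 0.26 for Itga6, -0.000895 to 0.18 for Itga7, -0.25 to 0.37 for Itgb4, -0.32 to 0.0062 for Itgal, -0.12 to 0.28 for Lama4 and -0.26 to 0.12 for Lamb1. The cause was not tested. The 11 untested members missed the filter of 1 FPKM in 5 libraries. Their reads per library differed widely, with 0 to 3 for Lama1 and 76 to 288 for Itga4.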

Other observations

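Neighbouring members differed in level: Itgam and Itgad lie 35.9 kb apart on chromosome 7, and their mean FPKM differed 8.27-fold. Itgam made up 0.173% ± 0.0316 of the macrophage gene sum in Flox and 0.200% ± 0.0237 in Ad-GHRKO (SD, n = 5 each), with overlap. The same ratio for Itgb2 did not overlap, but it was chosen after the values were seen, and Lyz2, C1qa and C1qb lead its sum. The log2 change of Itgb2, 1.004, lay between those of Adgre1 (0.92) and Cd68 (1.08), the largest of that list. The platelet gene sum ran from 34.2 to 89.2 FPKM in Flox and from 48.4 to 102 FPKM in Ad-GHRKO, beside overlapping levels of Itga2b. The B cell gene sum ran from 6.85 to 43.9 FPKM in Flox and from 2.83 to 16.0 FPKM in Ad-GHRKO, while Itgb7 had 6.03 to 23.1 FPKM and 7.02 to 21.3 FPKM.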
